A study of Mus musculus with 4 samples.

Results

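The collagen gene family was followed in IMS/N cells, a mouse hepatic stellate cell line, across 4 culture conditions. Its members were all probes of the array, controls excepted, whose gene name consists of Col, a number, the letter a and a number. This gave 91 of 41146 probes and 44 of 26793 genes. RefSeq symbols could be looked up by accession for 77 of the 91 probes, and in 0 of them did the symbol differ from the array's name.

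The series title asks whether adipose tissue-derived stem cells (ADSCs) restore stellate cells activated by palmitic acid (PA), a saturated fatty acid. The conditions were PA and ADSC medium, ADSC medium, PA, and control, with 1 array and no replicate in each. All 4 cultures were the same line, made from stellate cells of normal 129/Sv mouse liver and immortalized with SV40 virus. ADSC medium was medium from cultures of ADSCs, which came from inguinal subcutaneous fat of male C57BL/6J mice of 8 to 10 weeks. The sources used here give neither the dose and time of PA nor the medium of the control cultures, so an effect of the culture medium itself and one of what ADSCs release into it cannot be told apart. With 1 array per condition no test was possible, and each difference below describes a pair of arrays.

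Collagens are secreted proteins whose chains wind together as trimers, either from copies of the same chain or from different chains made by different genes. Fibrillar collagens form the fibres of connective tissue, type IV collagen forms the sheet of basement membranes, type VI collagen forms beaded filaments around cells, and the FACIT collagens sit on the surface of fibrils. In the liver, activated stellate cells are the main source of the fibrillar collagen that builds up as scar tissue.

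Each level below is a log2 intensity after quantile normalization of the 4 arrays, and each difference is one of such levels. A probe's level cannot be set against that of another probe, so levels are compared between arrays only. A probe counted as well above background on an array if over 50% of its spots carried that flag of the image software. For a gene with several probes, the brightest on average over the arrays was used. Where a gene was well above background on 1 of the arrays compared only, its difference is a lower bound and is written "at least". The SD of the difference between 2 spots of the same probe was 0.41 for levels under 3, 0.23 from 3 to 5, 0.13 from 5 to 7, 0.08 from 7 to 9 and 0.06 to 0.07 above 9. It covers the measurement on the array and not the variation between cultures.

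The share of all probes well above background was 69.4% on the PA and ADSC medium array, 68.5% on the ADSC medium array, 70.0% on the PA array and 67.5% on the control array. Of 10 stellate cell markers, 5 were well above background on all 4 arrays (Des, Pdgfrb, Acta2, Lhx2 and Vim), while Lrat, Reln, Hgf, Hand2 and Gfap were on none. None of 4 hepatocyte markers was well above background. Neither were the macrophage markers Adgre1, Clec4f and Ptprc, the endothelial markers Pecam1 and Cdh5, or the epithelial markers Epcam and Cdh1, although 2, 3 and 3 other markers of those lists were. Of 5 portal fibroblast and mesothelial markers, Thy1, Msln and Fbln2 were well above background on all 4 arrays and Upk3b and Wt1 on none. In RNA from whole cultures, fewer cells of a type and less RNA per cell cannot be told apart.

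Of the 44 collagen genes, 31 were well above background on all 4 arrays and 5 more on some. All 11 fibrillar genes on the array were among these 31, with 5 of 6 type IV genes, 4 of 6 type VI genes, 6 of 9 FACIT genes and 5 of 12 others. The 8 genes well above background on no array were Col4a3, Col6a5, Col6a6, Col9a1, Col10a1, Col17a1, Col19a1 and Col28a1. The 5 that were so on some arrays only were Col8a2, Col14a1, Col15a1, Col23a1 and Col26a1.

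Most collagen genes stood somewhat lower with PA after quantile normalization, by small amounts. The direction rests on the scaling between arrays. Of the 31 collagen genes well above background on all 4 arrays, 24 were lower with PA than in control. With no scaling 9 were lower, and the median of the 31 was 0.11, against 0.29 over all such genes. With ADSC medium present, 21 were lower with PA, and 17 with no scaling (median -0.03, against 0.11). Without ADSC medium, 26 of 33 collagen genes with a difference were lower with PA by any amount (78.8%), against 51.3% of all genes. Their median difference was -0.18, against -0.01 over all genes. At the threshold of 1.5-fold used here, 0 were higher and 2 (6.06%) were lower, namely Col2a1 and Col3a1. Among all 18209 genes compared, 2.92% were at least 1.5-fold higher and 3.27% at least 1.5-fold lower. With ADSC medium present, 23 of 34 were lower with PA (67.6%), against 52.4% of all genes, and the median was -0.16 against -0.02 over all genes. Col9a3 and Col6a3 were at least 1.5-fold higher there (5.88% of the collagen genes, 3.54% of all genes), and Col13a1 and Col2a1 at least 1.5-fold lower (5.88%, against 3.14% of all genes).

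These PA differences come from separate pairs of arrays, which were normalized together. Of the 31 collagen genes well above background everywhere, 18 (58.1%) were lower with PA in both pairs, 4 were higher in both and 9 differed in sign. Of the 17355 such genes on the whole array, 34.4% were lower in both pairs. These counts rest on the scaling between arrays. With no scaling, 9 of the 31 were lower in the pair without ADSC medium and 17 in the pair with it. The sizes were also small: Col2a1 was the 1 collagen gene that was at least 1.5-fold lower in both.

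ADSC medium went with higher levels of a small set of collagen genes, with those of type VI collagen at the front. Without PA, Col6a3 and Col6a1 were at least 1.5-fold higher, 5.71% of the 35 collagen genes with a difference and 2.31% of all genes. Col26a1 was at least 1.5-fold lower, 2.86% of the collagen genes and 1.29% of all genes. The family median was 0.04, with 19 genes higher and 16 lower by any amount. With PA present, 5 of 34 (14.7%) were at least 1.5-fold higher with the medium, against 5.25% of all genes. They were Col6a3, Col6a1, Col8a2, Col3a1 and Col6a2. The 2 that were at least 1.5-fold lower, Col5a2 and Col13a1, made up 5.88%, against 3.72% of all genes. These counts of 5 and 2 became 6 and 1 with the 75th percentile scaling, and 3 and 1 with the normexp background correction. By any amount 23 of the 34 were higher (67.6%, against 46.4% of all genes), and the median was 0.10, against -0.02 over all genes. This direction too rests on the scaling. Of the 31 collagen genes well above background on all 4 arrays, 10 were lower with the medium when PA was present, and 17 with no scaling. The unscaled median of the 31 was -0.04, against -0.19 over all such genes. Without PA, 14 were lower either way.

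Compared with control, cultures given both PA and ADSC medium had 2 collagen genes at least 1.5-fold higher, Col6a3 and Col9a3 (5.88%, against 4.68% of all genes). Col26a1 was at least 1.5-fold lower (2.94%, against 3.67% of all genes). The family median was -0.16, against -0.02 over all genes. All 11 fibrillar genes except Col11a2 stood below control, none by 1.5-fold. By any amount, 23 of the 34 collagen genes (67.6%) and 53.4% of all genes stood below control. Of the 31 collagen genes well above background on all 4 arrays, 21 stood below control, and 17 with no scaling. The unscaled median of the 31 was -0.02, against 0.10 over all such genes.

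**Figure D1:**
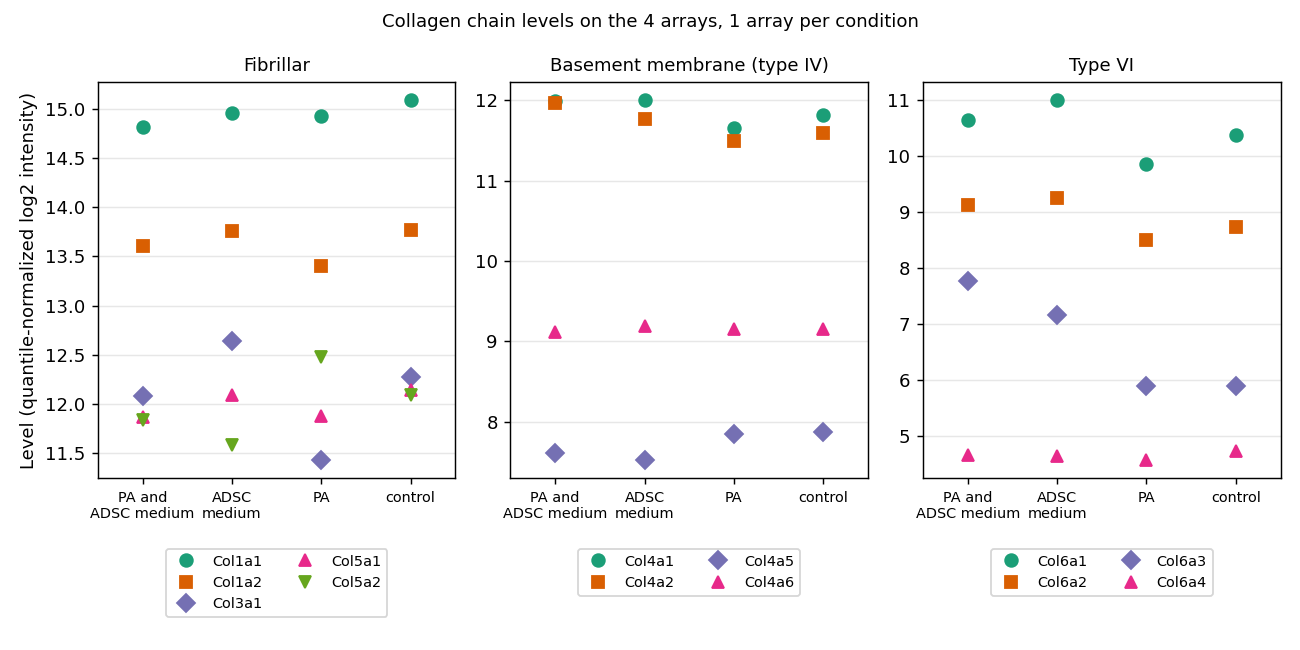
Levels of 5 fibrillar, 4 basement membrane and 4 type VI collagen genes (quantile-normalized log2 intensity, vertical axis, which does not start at 0 and has its own range in each panel) on the 4 arrays, with 1 point per gene and array and no replicate, to be compared along a gene and not between genes. Col6a3 lies at 7.77 and 7.17 on the arrays with ADSC medium, against 5.89 and 5.90 on those without, and Col3a1 is lowest with PA alone, at 11.43.

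Type VI collagen is a trimer of chains from Col6a1, Col6a2 and usually Col6a3, and the 250 bases before the RefSeq start of these genes are shown because the 3 genes stood higher together on both arrays with ADSC medium. Where a gene has several starts, the one farthest upstream was taken. The sequences are from RefSeq on GRCm38.p6, written 5′ to 3′ on the gene's strand. Capitals mark any match on either strand to the CCAAT box, to the GC box with the letters GGGCGG, or to the TATA box with the letters TATAAA.
Col6a1, chr10:76726045-76726294, minus strand: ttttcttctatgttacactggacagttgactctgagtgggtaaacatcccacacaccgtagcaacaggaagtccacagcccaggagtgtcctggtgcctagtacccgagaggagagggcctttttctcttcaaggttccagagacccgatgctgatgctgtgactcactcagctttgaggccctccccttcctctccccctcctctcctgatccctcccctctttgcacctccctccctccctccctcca
Col6a2, chr10:76623631-76623880, minus strand: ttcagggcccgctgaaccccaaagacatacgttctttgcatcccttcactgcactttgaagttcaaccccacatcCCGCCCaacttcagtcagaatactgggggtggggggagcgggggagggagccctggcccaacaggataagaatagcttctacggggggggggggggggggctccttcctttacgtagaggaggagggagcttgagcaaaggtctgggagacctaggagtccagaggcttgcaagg
Col6a3, chr1:90843972-90844221, minus strand: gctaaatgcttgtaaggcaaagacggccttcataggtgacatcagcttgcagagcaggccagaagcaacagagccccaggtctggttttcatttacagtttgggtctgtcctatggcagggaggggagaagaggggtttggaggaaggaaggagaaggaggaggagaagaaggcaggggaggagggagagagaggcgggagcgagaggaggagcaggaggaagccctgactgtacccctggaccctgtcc
In these windows Col6a2 held 1 GC box match, read on the opposite strand, and Col6a1 and Col6a3 held none of the motifs searched. Of 35 collagen genes with an entry, 60.0% held the GC box letters in such a window, against 33.0% of all 27025 genes with one. The CCAAT box letters were in 34.3%, against 34.5% of all, and the TATA box letters in 14.3%, against 13.0%. G and C made up 56.0% of the Col6a1 window, 59.2% of the Col6a2 window and 57.2% of the Col6a3 window.

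Col6a3, the gene of the large chain, showed the largest difference with ADSC medium among the collagen genes whose difference was not a lower bound. Its level was 7.77 with PA and ADSC medium, 7.17 with ADSC medium, 5.89 with PA and 5.90 in control. Both arrays with the medium were above both arrays without it. It was 2.42-fold higher with the medium than in control and 3.69-fold higher with PA and ADSC medium than with PA. PA alone made no difference beyond the spot error (-0.01), while with the medium present the level was 1.51-fold higher with PA. With the normexp background correction the ADSC medium differences of 1.27 and 1.88 were 0.78 and 1.22. The probe lies on chromosome 1, 92663663 to 92663722 (mm9). The other 2 Col6a3 probes, at 92699157 to 92699216 and 92710283 to 92710342, were not well above background on any array.

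Col6a1 encodes another of the chains, and its level was 10.65 with PA and ADSC medium, 11.00 with ADSC medium, 9.86 with PA and 10.39 in control (chromosome 10, 76171899 to 76171958, mm9). It was 1.53-fold higher with the medium than in control and 1.72-fold higher with PA and ADSC medium than with PA. In both pairs it was lower with PA, by -0.52 without the medium and -0.35 with it. Col6a2, its neighbour on the same strand with no protein-coding gene between them in RefSeq, ran alongside. The Col6a2 level was 9.13 with PA and ADSC medium, 9.26 with ADSC medium, 8.51 with PA and 8.74 in control. It was 1.43-fold and 1.53-fold higher with the medium, without and with PA. Its second probe gave 0.52 and 0.36 in these comparisons, against 0.51 and 0.62 for the first.

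Of the other type VI chains, Col6a4 did not share this. Col6a4 stood between 4.57 and 4.72 on the 4 arrays, within the spot error, although a second probe gave 0.71 for PA against control. Col6a5 and Col6a6 were not well above background on any array, so they had no difference to compare.

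Markers of other cell types also differed with ADSC medium. Of 5 adipocyte markers, Fabp4, which encodes a fatty acid binding protein, was well above background, at 11.99 with PA and ADSC medium, 12.07 with ADSC medium, 10.95 with PA and 11.46 in control. The summed intensity of the list, nearly all of it from Fabp4, was 4083 to 4294 on the arrays with the medium, against 1986 to 2819 on those without. Adipoq, Plin1, Lep and Cfd were not well above background on any array. Sox9, a transcription factor gene listed with the biliary markers, had a level of 8.95 with PA and ADSC medium, 8.98 with ADSC medium, 7.65 with PA and 8.04 in control, or differences of 0.94 and 1.30 with the medium, without and with PA. In the same list the keratin gene Krt7 went the other way, by -0.88 and -0.77, and Krt19 was at 0.09 and -0.23. The summed intensity of that list was 1014 and 1213 with the medium, against 933 and 1217 without.

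The stellate cell markers did not differ alike. Acta2, the smooth muscle actin gene, had a level of 13.56 with PA and ADSC medium, 13.35 with ADSC medium, 14.58 with PA and 14.78 in control, so that it was 2.70-fold and 2.02-fold lower with the medium, without and with PA. Pdgfrb, a growth factor receptor gene, had a level of 12.79 with PA and ADSC medium, 12.74 with ADSC medium, 11.46 with PA and 12.39 in control. It was lowest with PA alone, as Col3a1 was. Des was at 3.38 with PA and ADSC medium, 3.47 with ADSC medium, 4.51 with PA and 3.63 in control, and Lhx2 and Vim differed by at most 0.11 in any comparison. The summed intensity of the list, most of it from Vim and Acta2, was 85797 to 88014 with the medium, against 97217 to 101938 without. The part of these markers in the collagen differences was not tested.

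**Figure D2:**
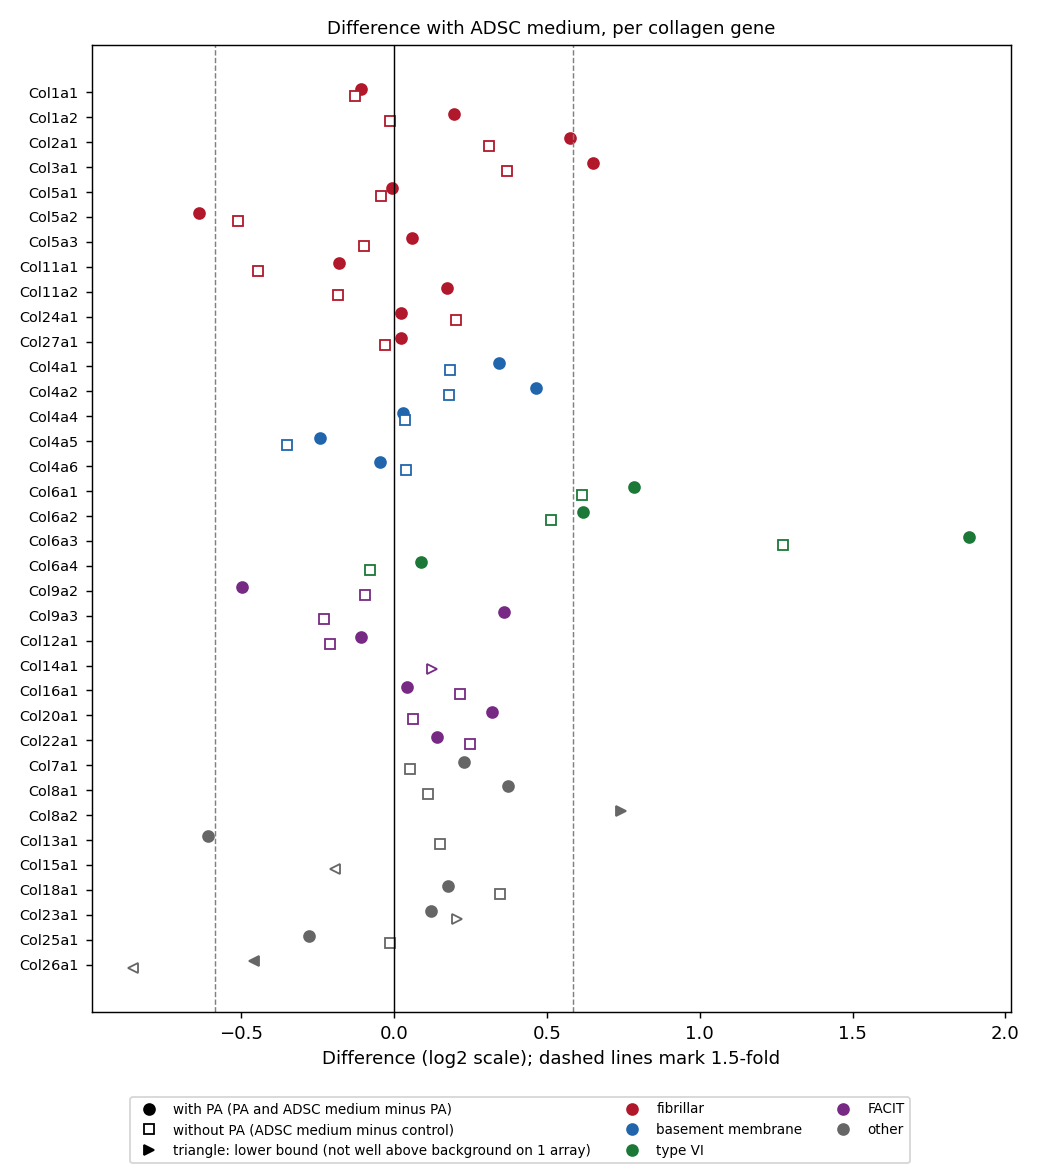
Difference with ADSC medium on the log2 scale (horizontal axis) for each collagen gene with a value, with PA (filled circles) and without PA (open squares), and lower bounds as triangles. The 3 genes Col6a1, Col6a2 and Col6a3 lie to the right in both, Col6a3 at 1.88 and 1.27, and Col5a2 lies to the left in both.

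PA went with a lower level, by any amount, in 9 of the 11 fibrillar genes without ADSC medium and in 9 with it. This was 81.8% in each, against 51.3% and 52.4% of all genes. The class medians were -0.27 and -0.16. These values are after quantile normalization, and the direction over the whole family rests on the scaling between arrays. Col3a1, whose chains form fine fibrils together with type I collagen, had a level of 12.08 with PA and ADSC medium, 12.64 with ADSC medium, 11.43 with PA and 12.27 in control (chromosome 1, 45405589 to 45405648, mm9). The PA array was the lowest and the ADSC medium array the highest. Col3a1 was 1.79-fold lower with PA than in control, and -0.56, or 1.48-fold, lower with PA when the medium was present. All 3 of its probes were lower with PA, between -1.17 and -0.61 without the medium. With PA and ADSC medium it was 1.57-fold higher than with PA, and at -0.19 it stood below control.

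The 250 bases before the RefSeq start of Col3a1 are shown beside those of the type VI genes because Col3a1 too was higher with the medium in both pairs (0.37 and 0.65). They hold 1 TATA box match, in capitals, and no match to the other motifs, and 35.2% of their bases are G or C, the lowest share among the 35 collagen genes.
Col3a1, GRCm38.p6, chr1:45311288-45311537, plus strand: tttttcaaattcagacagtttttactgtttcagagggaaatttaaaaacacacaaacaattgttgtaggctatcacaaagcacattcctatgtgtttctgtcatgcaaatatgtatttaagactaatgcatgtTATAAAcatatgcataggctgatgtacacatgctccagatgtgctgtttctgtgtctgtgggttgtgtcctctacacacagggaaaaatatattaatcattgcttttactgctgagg

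Col5a2, a chain of type V collagen, lies next to Col3a1, tail to tail with it and with no protein-coding gene between them in RefSeq. It went the other way in every comparison except the one of both treatments against control. The Col5a2 level was 11.84 with PA and ADSC medium, 11.58 with ADSC medium, 12.48 with PA and 12.09 in control (chromosome 1, 45433621 to 45433680, mm9). The PA array was the highest and the ADSC medium array the lowest, the reverse of Col3a1. It was 1.30-fold higher with PA than in control, 1.43-fold lower with ADSC medium than in control, and 1.56-fold lower with PA and ADSC medium than with PA. Col5a2 has 1 probe on the array.

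Its partner chain Col5a1 did not follow it. The Col5a1 level was 11.87 with PA and ADSC medium, 12.10 with ADSC medium, 11.87 with PA and 12.14 in control. Both arrays with PA were below both arrays without it, by -0.27 without the medium and -0.23 with it, and the medium made differences of -0.04 and -0.01. The third type V gene, Col5a3, was lower with PA by -0.48 and -0.32.

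The type I genes, which encode the main collagen of scar tissue, differed little between the 4 arrays. Col1a1 had a level of 14.81 with PA and ADSC medium, 14.96 with ADSC medium, 14.92 with PA and 15.09 in control (chromosome 11, 94813075 to 94813134, mm9). Control was the highest and both treatments together the lowest, 1.21-fold apart. The probe is printed on 10 spots, of which 8 had no outlier flag, and the SD of these spots within an array was 0.02 to 0.04. The PA difference of -0.16 was -0.31 with the 75th percentile scaling and 0.03, of opposite sign, with no scaling between arrays. The other 2 Col1a1 probes gave -0.24 and -0.23 for PA and -0.15 and -0.31 for ADSC medium.

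Col1a2, whose chain joins with those of Col1a1, had a level of 13.60 with PA and ADSC medium, 13.76 with ADSC medium, 13.41 with PA and 13.77 in control (chromosome 6, 4490619 to 4490678, mm9). The PA array was the lowest, at 1.29-fold below control, and the other 3 lay within 0.17 of each other. A second, dim probe, at 3.31 to 3.93 on the arrays other than PA, gave -1.26 for PA, so that the mean of the detected probes was -0.81 in place of -0.37. ADSC medium made a difference of -0.01 without PA, and values of 0.01 under 75th percentile scaling and 0.03 under normexp had the opposite sign.

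Col2a1, known from cartilage, was lower with PA by its main probe, at 8.52 with PA and ADSC medium, 9.15 with ADSC medium, 7.94 with PA and 8.84 in control. This was 1.86-fold lower with PA than in control, and 1.54-fold lower with PA when the medium was present. The spots of this probe had an SD of 0.04 to 0.05 within an array. A second probe of Col2a1 shares 40 of its 60 bases with the main one and gave another result. Its level was 6.30 with PA and ADSC medium, 6.41 with ADSC medium, 6.52 with PA and 6.31 in control, or 0.21 for PA against control. Both probes are printed because they disagree, with the shared stretch in capitals (mm9, minus strand, 5′ to 3′).
Main probe, chr15:97806485-97806544: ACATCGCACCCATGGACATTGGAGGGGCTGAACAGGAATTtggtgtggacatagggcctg
Second probe, chr15:97806505-97806564: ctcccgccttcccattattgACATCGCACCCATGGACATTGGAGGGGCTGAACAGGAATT
With the mean of the detected probes the PA difference of -0.89 was -0.34.

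Of the remaining fibrillar genes, Col11a1, which controls fibril width in cartilage, was lower in each treated culture. Its level was 9.01 with PA and ADSC medium, 9.12 with ADSC medium, 9.19 with PA and 9.56 in control, and the control array stood apart above the others. A second probe gave -0.52 for ADSC medium and -0.24 for PA, against -0.45 and -0.38 for the first. Col11a2 was higher with PA by 0.10 without the medium and 0.46 with it, whereas its second, dimmer probe gave 0.14 and -0.40. Col24a1 and Col27a1, at levels of 3.40 to 4.61, were lower with PA by -0.27 to -0.09, where the SD of spot differences was 0.23. A second, dimmer Col27a1 probe gave 0.48 for PA without the medium and -0.31 with it.

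**Figure D3:**
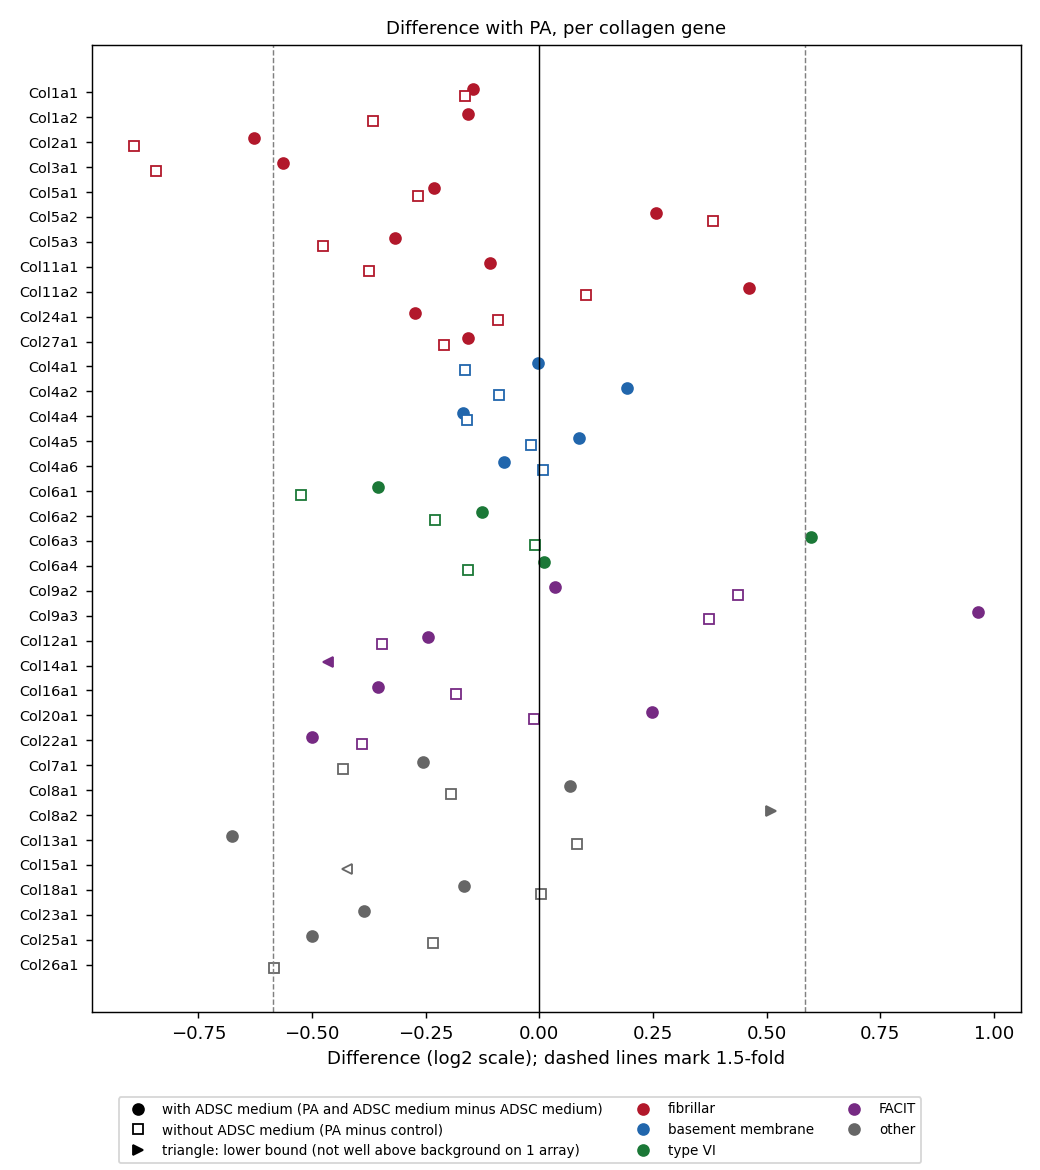
Difference with PA on the log2 scale (horizontal axis) for each collagen gene with a value, with ADSC medium (filled circles) and without it (open squares), and lower bounds as triangles. After quantile normalization most points lie left of 0, with Col2a1 and Col3a1 farthest left without the medium (-0.89 and -0.84), and Col5a2 lies right of 0 in both.

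Of type IV collagen, Col4a1 and Col4a2 encode the chains found in nearly all basement membranes, and the genes lie head to head. By their main probes they differed in the same direction with ADSC medium and with PA alone, by small amounts. Col4a1 had a level of 12.00 with PA and ADSC medium, 12.00 with ADSC medium, 11.66 with PA and 11.82 in control (chromosome 8, 11199009 to 11199068, mm9). Col4a2 had a level of 11.96 with PA and ADSC medium, 11.77 with ADSC medium, 11.50 with PA and 11.59 in control (chromosome 8, 11448840 to 11448899, mm9). For both genes the arrays with ADSC medium were above those without it, by 0.18 and 0.34 for Col4a1 and by 0.18 and 0.46 for Col4a2, without and with PA. PA alone gave -0.16 and -0.09. The 3 probes of Col4a1 had the same signs here but not the same size: the dimmest, at 5.16 to 6.14, gave -0.78 for PA against control and 0.89 for both treatments against PA. With the mean of detected probes the Col4a1 values of -0.16 and 0.34 were -0.38 and 0.57. With the medium present, PA gave -0.003 for Col4a1, whose probes differed in sign there, and 0.19 for Col4a2.

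The X-linked pair, Col4a5 and Col4a6, also lies head to head but did not move together. Col4a5 was lower with the medium by -0.35 and -0.24, without and with PA. Col4a6 stayed between 9.11 and 9.19 on the 4 arrays. Of the remaining pair, Col4a4 had 10.85 with PA and ADSC medium, 11.02 with ADSC medium, 10.82 with PA and 10.98 in control by its main probe. The second Col4a4 probe and all 3 probes of its partner Col4a3 were not well above background on any array.

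Among the FACIT genes, Col9a2 and Col9a3, chains of type IX collagen, were higher with PA. Col9a3 had a level of 4.55 with PA and ADSC medium, 3.58 with ADSC medium, 4.19 with PA and 3.81 in control. Both arrays with PA were above both arrays without it, by 0.37 without the medium and by 0.97, or 1.95-fold, with it. This gene is dim and spot differences have an SD of 0.23 at its level, and with the normexp background the 0.97 was 0.26. Col9a2 had a level of 6.30 with PA and ADSC medium, 6.26 with ADSC medium, 6.80 with PA and 6.36 in control, so that the PA array alone was high.

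Col12a1 and Col16a1, which encode collagens of fibril surfaces, were lower with PA in both pairs. The differences for Col12a1 were -0.35 and -0.25, and those for Col16a1 -0.18 and -0.35, without and with the medium. Both had a second probe with the same sign in both pairs. Col22a1 was lower with PA by -0.39 and -0.50, but its second probe gave 0.26 and 0.45. Col20a1 differed by -0.01 and 0.25, while its second probe gave -0.10 and -0.29. Col14a1 was well above background with ADSC medium alone, at 2.58, against 2.45 in control.

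Of the other collagens, Col7a1, the anchoring fibril collagen, was lower with PA by -0.43 and -0.26. Its level was 12.21 with PA and ADSC medium, 12.46 with ADSC medium, 11.98 with PA and 12.41 in control. Col8a1, a short-chain collagen of vessel walls, ran from 13.14 with PA to 13.51 with PA and ADSC medium. Col18a1, whose end fragment is endostatin, was higher with the medium by 0.35 without PA and 0.18 with it, and a second probe gave 0.27 and 0.25. Col13a1, a transmembrane collagen, was at 2.55 with PA and ADSC medium, 3.23 with ADSC medium, 3.16 with PA and 3.08 in control. These differences of -0.68 and -0.61, against ADSC medium and against PA, were -0.05 and -0.02 with normexp.

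Col26a1 was well above background on the arrays without ADSC medium only, at 2.57 with PA and 3.15 in control. It was at least 1.81-fold lower with ADSC medium than in control, and at least 2.06-fold lower with both treatments than in control. With normexp these differences of -0.85 and -1.04 were -0.05 and -0.11. Col8a2 was well above background with PA and ADSC medium alone, at least 1.67-fold higher than with PA, and 0.08 with normexp. Col15a1 was well above background on the control array alone, and Col23a1 on all arrays except control. The Col23a1 level was 2.25 with PA and ADSC medium, 2.63 with ADSC medium, 2.13 with PA and 2.24 in control. The dimmest probe with the flag stood at 2.43 in control, 2.07 with PA, 2.30 with ADSC medium and 2.11 with both. Control was not below PA for Col23a1, so its missing flag does not show that the gene was absent there. Col25a1 was lower with PA by -0.23 and -0.50.

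Probes of the same gene could be compared for 20 genes with several probes well above background on all 4 arrays. For PA against control, all probes of 14 genes had the same sign, and for ADSC medium against control those of 15. For PA and ADSC medium against PA, and against ADSC medium, this held for 12 genes each. The genes that disagreed included Col2a1, Col6a4 and Col22a1, while those of Col1a1, Col1a2, Col3a1, Col4a1, Col4a2, Col5a1 and Col6a2 had the same sign for PA against control.

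**Figure D4:**
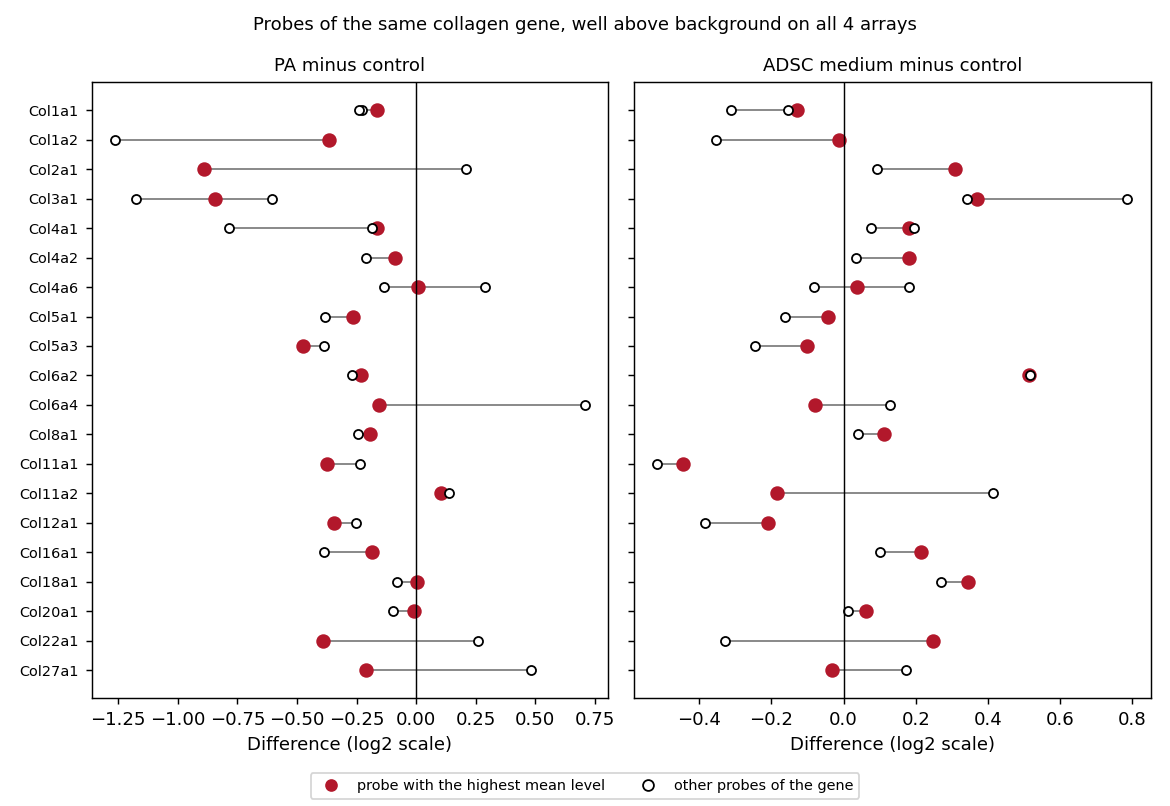
Differences on the log2 scale (horizontal axes) of each probe of the 20 collagen genes with several probes well above background on all 4 arrays, for PA minus control (left) and ADSC medium minus control (right). The filled point is the probe used for the gene. The probes of Col3a1 all lie left of 0 with PA, whereas those of Col2a1 lie on both sides, at -0.89 and 0.21.

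Collagen chains are hydroxylated, folded, exported, trimmed and crosslinked by other proteins, and 45 genes of these steps and of collagen receptors were set beside the family. Of these, 41 had a difference in each comparison. None of the 41 was 1.5-fold higher or lower with PA, without or with ADSC medium, where 2.92% to 3.54% of all genes were in each direction. By any amount after quantile normalization, 29 of the 41 were lower with PA without the medium and 25 with it, where 51.3% and 52.4% of all genes were. All 3 listed secretion genes were lower in both pairs, although Mia3 without the medium was at -0.01, within the spot error. The genes for trimming of the chain ends were mostly lower too, 5 of 6 in each pair, by less than 1.5-fold. Pcolce2, an enhancer of that trimming, was at -0.57 without the medium and -0.10 with it, and the protease gene Bmp1 at -0.39 and -0.32.

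With ADSC medium against control, 2 of the 41 (4.88%) were at least 1.5-fold lower and none as much higher, against 1.29% and 2.31% of all genes. Itga11, which encodes a collagen receptor subunit, had a level of 3.90 with PA and ADSC medium, 3.64 with ADSC medium, 4.40 with PA and 4.77 in control. It was 2.19-fold lower with the medium than in control. Tll1, a protease gene, was at -0.65. With PA and ADSC medium against PA, Itga10 was at least 1.5-fold higher (0.79), and P4ha3, a subunit gene of prolyl hydroxylase, at least as much lower (-0.67). Each was 2.44% of the 41, against 5.25% of all genes higher and 3.72% lower. Both genes are dim. Itga10 stood at 2.91 with PA and ADSC medium and 2.12 with PA, where the SD of spot differences was 0.41. Against control, cultures with both treatments had higher Plod2 (0.74), P4ha1 (0.67) and Loxl3 (0.66), which encode a lysyl hydroxylase, a prolyl hydroxylase subunit and a crosslinking enzyme. Itga11 (-0.87) and P4ha3 (-0.76) were lower. These made up 7.32% higher and 4.88% lower, against 4.68% and 3.67% of all genes. The chaperone gene Serpinh1, which serves fibrillar chains, ranged from 14.49 to 14.73.

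The authors' deposited lists were searched for the 91 collagen probes. The list of 1580 probes higher with PA than in control holds 2 of the 91 (2.20%), those of Col9a2 and Col9a3, and 3.84% of all probes. The list of 920 probes higher with PA than with PA and ADSC medium also holds 2 (2.20%), those of Col5a2 and Col26a1, and 2.24% of all probes. No probe of a type I, III, IV or VI collagen gene is in either of the authors' deposited lists. Both lists hold only probes higher with PA, so a probe that stood lower with PA in the comparison of a list has no place in it. Absence from the lists therefore does not show that the authors found no difference in these genes.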

How the data were processed

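Total RNA was labelled with Cy3 and hybridized to 1 single-colour Agilent array (design 014868, annotated on mm9) per condition, and per the file headers spots were read by Feature Extraction 12.1.1.1 (protocol GE1_105_Dec08). The deposited intensity of a spot had been background-subtracted and detrended within its array by that software, per the file headers, and was not normalized between arrays. The authors applied quantile normalization, per the series' design text, and the submitters' processing notes name R 3.5.1. The deposited probe lists hold names without values, with no threshold stated.

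Here control spots and the 82 to 104 spots per array with an outlier flag were left out, values were taken to log2 and averaged over a probe's spots, and quantile normalization was done with limma 3.58.1 in R 4.3.3. No spot was saturated. The 75th percentile of intensity was 518 (PA and ADSC medium), 473 (ADSC medium), 602 (PA) and 476 (control), and the normalization removes such a shift. On the whole array 28680 probes were named by RefSeq accession and 12466 kept the array's name. For a bound, the dim side was set to its own level or, if that was higher, to the array's detection floor (2.07 to 2.43, the lowest level of a probe well above background there). A gene whose bound would be under 1-fold got no difference. No p-value was computed. The number of arrays limits the precision. The 5 other settings were 75th percentile scaling, normexp with an offset of 50, no filter, only genes well above background on all 4 arrays, and the mean of detected probes. Where stated, log2 values with no scaling between arrays are given as well. Text named every collagen gene that differed by 1.5-fold and 10 fixed chains of types I and III to VI. Members, classes and lists were chosen with earlier results of these data known. Neither an mm9 annotation nor protein sequences were used here. Python 3.11.15, numpy 2.4.6, pandas 2.3.3 and matplotlib 3.10.9 were used.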

Additional observations from a re-analysis of the deposited data

Results flagged for a closer look

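For 4 collagen genes the effect of a treatment had opposite signs in the 2 pairs of arrays, each beyond 1 SD of the difference between 2 spots. The difference between the pairs was not tested. With PA, Col4a2 was at 0.19 with ADSC medium and -0.09 without it, 0.28 apart, and Col8a1 at 0.07 and -0.19, 0.26 apart, although its second probe was at -0.06 and -0.24. With ADSC medium, Col9a3 was at 0.36 with PA and -0.23 without it, 0.59 apart, and Col11a2 at 0.17 and -0.18, 0.36 apart, whereas the second Col11a2 probe went the other way, at -0.13 and 0.41.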

How the results depend on the processing

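No paired analysis was possible because each condition has 1 array, and for the same reason no replicate could be left out. Of the 19 differences of at least 1.5-fold, 18 remained past that size with the 75th percentile scaling, 9 with normexp and 16 when detected probes of a gene were averaged, and none changed direction. With normexp the counts of higher genes were 3 for PA and ADSC medium against PA, 0 against ADSC medium and 1 against control, and those of lower genes 1, 0 and 0, with 0 lower for ADSC medium against control. The normexp medians were -0.071 for PA and -0.069 for both treatments, each against control. Its offset shrinks differences between dim values. With no filter on dim probes the higher and lower counts were 3 and 5 (PA against control), 5 and 3 (ADSC medium against control), 8 and 4 (both treatments against PA), 5 and 5 (both against ADSC medium) and 4 and 2 (both against control, median -0.069). With the 75th percentile scaling, PA and ADSC medium against PA had 1 lower gene and a median of 0.19. With genes well above background on all 4 arrays only, 0 were lower with ADSC medium, or with both treatments, than in control, since Col26a1 was left out. With the mean of detected probes, 2 were lower with both treatments than in control, and the median against PA was 0.027. Other causes were not tested.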

Other observations

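Col4a3 and Col4a4 lie head to head, yet the main probe of Col4a4 stood at 10.82 to 11.02 while no Col4a3 probe was well above background on any array. The array's annotation places that Col4a4 probe on 29 bases of chromosome 1 (82447298 to 82447326, mm9), and the other Col4a4 probe, mapped over 60 bases, was at most at 1.66 and well above background on none.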
